A study of Mus musculus with 21 samples.

Results

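The granins and the enzymes that process their cargo were measured in a bulk 3′ RNA-seq series on the cortex and hippocampus of GA-Camk2a mice. The set held the granins Scg2, Scg3, Chga, Chgb and Vgf, the granin-like chaperone Scg5, the convertases Pcsk1 and Pcsk2, the carboxypeptidase Cpe and the amidating enzyme Pam. These 10 genes were picked by symbol, and all 10 were found among the 64361 genes of the count table. The series held 21 prime-seq libraries from 11 mice (5 control, 6 GA-Camk2a), and 10 of the mice gave both tissues. Of these libraries, 5 were control cortex, 6 GA-Camk2a cortex, 4 control hippocampus and 6 GA-Camk2a hippocampus, as the labels give them. A figure legend of the study gives the control numbers of the tissues the other way round, and the labels were followed. GA-Camk2a mice carried a GFP-tagged poly-GA transgene of C9orf72 behind a floxed stop cassette, which Camk2a-Cre releases in excitatory neurons. The comparison group is labelled ctrl, and the labels do not say which alleles it carried. All mice were 30 to 40 weeks old, an age set by the humane endpoint of the transgenic animals, and only a pair of litters supplied the transgenic group.

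Dense-core vesicles store neuropeptides, neurotrophins and hormones and release them upon calcium entry. Granins are acidic secretory proteins that aggregate in the trans-Golgi network and help to form these vesicles. Inside the vesicle, Pcsk1 and Pcsk2 cut precursors after pairs of basic residues, Cpe trims the exposed basic residues, and Pam amidates the C-terminus of many peptides. Several of these genes are known to respond to cAMP and neuronal activity in neurons and endocrine cells.

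Total counts ranged from 1048201 to 5888102 per library (median 1975173). Levels are given as CPM, a gene's counts scaled to a library total of 1000000. Members were read from 8 to 10723 counts per library, so Pcsk1 was measured with far less precision than the others. The GFP row held 17 counts over all libraries and at most 4 in any of them, and was not 0 in cortex controls (4 counts in total), so it did not serve as a check of genotype. All 5 hippocampus markers were higher in the hippocampus of control mice than in their cortex. Of 5 cortex markers, 3 were lower there, 1 was higher and 1 did not pass. Of all genes, 8.69% were higher and 7.6% lower in this comparison. Some libraries stood apart. Rorb, a transcription factor gene of the cortex marker list, was singled out after its values were seen. It ranged from 1455 to 5303 CPM in 3 hippocampus libraries (GA-Camk2a 16 and 30, control 11) and from 86.6 to 165 CPM in the other hippocampus libraries. In cortex it was at 612 CPM in GA-Camk2a 41 and at most 214 CPM elsewhere. The summed choroid plexus markers ranged from 1810 to 32723 CPM in hippocampus controls and from 1839 to 55530 CPM in GA-Camk2a hippocampus. In cortex they were at 8194 CPM in GA-Camk2a 34 and at most 2724 CPM elsewhere. The pituitary hormone genes Gh and Prl, also chosen after their values were seen, split by the batch label. Gh lay between 35.1 and 63.0 CPM in the 12 libraries of batch 1 and between 262 and 563 CPM in the 9 of batch 2. The batch term passed the test for 0 of the 10 members in either tissue (edgeR, lowest adjusted p = 0.392, for Chgb in cortex), and for 332 of 13058 genes in cortex and 238 of 14884 in hippocampus.

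To show the sequence context of the granin genes, the 250 bases upstream of the annotated start were read from RefSeq promoters (build GRCm38.p6), which held 8 of the 10 members. Vgf and Cpe had no entry. The cAMP response element TGACGTCA was searched on both strands, together with its core TGACG, the AP-1 element TGANTCA and the GC box GGGCGG. The full element contains the core on both strands, so a promoter with it counts under both. It was found in Scg2, Chgb and Pcsk1, that is in 3 of 8 members, and in 1.77% of the 27025 genes with a promoter in the table. It began 68 bases before the start of Scg2, 72 before that of Chgb and 78 before that of Pcsk1. The core was found in 7 of 8 members (not in Pam) and in 19.8% of all genes. The AP-1 element was found in 0 of 8 members and in 7.82% of all genes, and the GC box in 5 of 8 members and 35.4% of all genes. Counted over the 32851 promoters in place of genes, the shares were 1.55%, 17.8%, 6.75% and 32.7%. A match is a run of letters and not a measured binding site.

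The promoters of 4 members whose levels differed between genotypes follow, 5′ to 3′ on the strand of the gene. Capitals mark the TGACG core on either strand and the full element where it is complete. Chgb lies at chr2:132781392-132781641 (plus strand), Scg2 at chr1:79440027-79440276 (minus strand), Pcsk2 at chr2:143545883-143546132 (plus strand) and Scg3 at chr9:75684057-75684306 (minus strand).
Chgb: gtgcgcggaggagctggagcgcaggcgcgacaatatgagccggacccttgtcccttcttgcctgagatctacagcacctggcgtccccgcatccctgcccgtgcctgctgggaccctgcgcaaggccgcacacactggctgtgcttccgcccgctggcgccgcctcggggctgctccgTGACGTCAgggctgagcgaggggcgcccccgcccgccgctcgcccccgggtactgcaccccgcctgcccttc
Scg2: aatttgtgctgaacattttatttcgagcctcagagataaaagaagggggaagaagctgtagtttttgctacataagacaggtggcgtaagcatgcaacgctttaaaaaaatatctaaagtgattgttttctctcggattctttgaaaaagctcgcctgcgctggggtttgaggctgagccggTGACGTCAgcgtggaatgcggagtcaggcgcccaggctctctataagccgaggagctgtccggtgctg
Pcsk2: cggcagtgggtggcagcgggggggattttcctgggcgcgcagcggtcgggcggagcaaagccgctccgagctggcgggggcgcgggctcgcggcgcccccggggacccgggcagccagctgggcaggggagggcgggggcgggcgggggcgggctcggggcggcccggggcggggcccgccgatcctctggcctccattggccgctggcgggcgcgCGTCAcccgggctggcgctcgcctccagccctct
Scg3: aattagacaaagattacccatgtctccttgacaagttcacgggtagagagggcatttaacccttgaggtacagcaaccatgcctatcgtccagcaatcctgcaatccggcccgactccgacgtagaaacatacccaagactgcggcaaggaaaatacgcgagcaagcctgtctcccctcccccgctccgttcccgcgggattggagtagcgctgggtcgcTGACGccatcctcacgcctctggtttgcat
Of these, Chgb and Scg2 carry the full element, and Chgb was lower and Scg2 higher in GA-Camk2a cortex. The Pcsk2 stretch holds 7 GC boxes, and 82.4% of its bases are G or C against a median of 52.4% over all promoters.

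**Figure D1:**
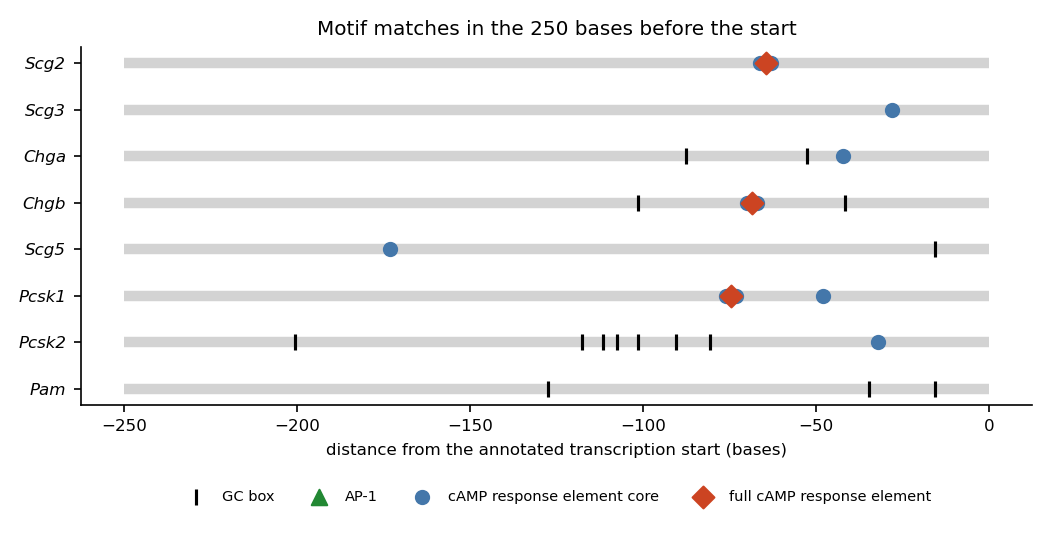
Position of the 4 searched motifs in the 250 bases before the annotated start of 8 members (x axis, bases from the start; y axis, gene). Scg2, Chgb and Pcsk1 carry the full element at 68, 72 and 78 bases before the start, and the AP-1 element of the legend has no point because no member holds it.

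In GA-Camk2a cortex, 5 of 10 members differed from controls, 3 higher (Cpe, Scg2, Scg3) and 2 lower (Pcsk2, Chgb). Among all 13058 genes tested in this tissue, 12.5% passed the same threshold (edgeR quasi-likelihood test, adjusted p of 0.05), 6.35% higher and 6.17% lower. The median log2 fold change was -0.14 over the members and -0.0050 over all genes. In GA-Camk2a hippocampus, 3 of 10 members differed, 1 higher (Scg3) and 2 lower (Chgb, Pcsk2), against 10.9% of 14884 genes, 4.97% higher and 5.97% lower. The member median was -0.14 there, and that of all genes was 0.016. Thus 3 members passed in both tissues, Pcsk2 and Chgb lower and Scg3 higher in each, though the Chgb and Scg3 calls in cortex were lost under several of the alternatives given below. In bulk tissue, fewer cells of a type and less RNA per cell cannot be told apart.

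**Figure D2:**
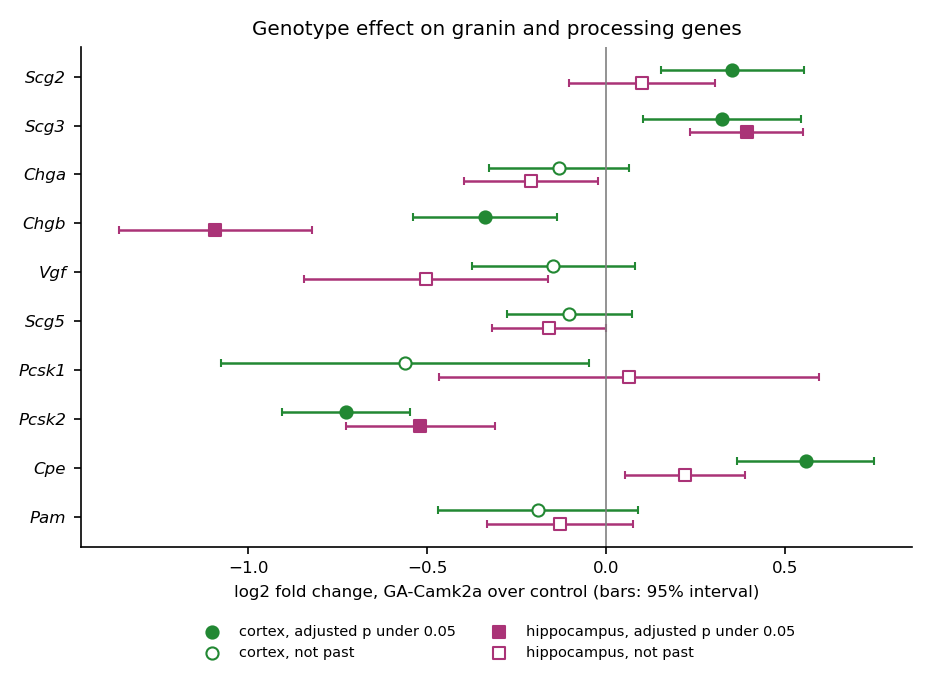
Genotype effect on each member (x axis, log2 fold change of GA-Camk2a against control with its 95% interval, not adjusted for the number of genes; y axis, gene) in cortex and hippocampus. Pcsk2 and Chgb lie to the left of 0 and Scg3 to the right in both tissues, and Chgb is at -0.34 in cortex and -1.09 in hippocampus.

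Chgb, chromogranin B, showed the largest member effect in hippocampus. Its level was 142, 120, 188 and 145 CPM in the 4 control hippocampi (mice 11, 20, 31 and 37). In the 6 GA-Camk2a hippocampi it ran from 49.6 to 79.3 CPM with a median of 74.8. Every GA-Camk2a hippocampus was below every control, with a mean of 149 ± 28.4 CPM (SD, n = 4) in controls against 71.5 ± 10.9 CPM (SD, n = 6). How many of all genes separate in this way was not counted, here and for the members below. The log2 fold change was -1.09 ± 0.13 (SE, edgeR, adjusted p = 7.28e-05). The call held in every alternative run in this tissue, with values from -1.22 to -0.99, and within both batches (-1.13 in batch 1, adjusted p = 0.0396, and -1.05 in batch 2, adjusted p = 0.0034). Mouse 16, the lowest library, is also the one with the highest Rorb level, and without it the log2 fold change was -1.01 (adjusted p = 8.90e-05).

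Cortical Chgb was at 114, 84.5, 112, 84.0 and 108 CPM in controls (mice 11, 20, 31, 37 and 38). The GA-Camk2a cortices ran from 67.4 to 91.6 CPM with a median of 79.7. Of the 6 GA-Camk2a libraries, 5 lay below every control and 1 lay among them. The log2 fold change was -0.34 ± 0.10 (SE, edgeR, adjusted p = 0.0232). This call was lost without control 11 (-0.30, adjusted p = 0.0649) and without GA-Camk2a 30 (-0.29, adjusted p = 0.0546), and it passed in neither batch alone (-0.41 with adjusted p = 0.0633 and -0.21 with adjusted p = 0.691). It was also lost with no batch term (adjusted p = 0.0552), DESeq2 without batch (0.0639), no low-count filter (0.0848) and 1 fit over all 21 libraries (0.0782), at log2 fold changes from -0.36 to -0.32.

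Scg3, secretogranin III, which tethers granin aggregates to the vesicle membrane, was higher in GA-Camk2a mice. Control hippocampi held 126, 125, 125 and 122 CPM (mice 11, 20, 31 and 37), the tightest group of any member. GA-Camk2a hippocampi ran from 153 to 184 CPM with a median of 172. The groups did not overlap, and the log2 fold change was 0.39 ± 0.07 (SE, edgeR, adjusted p = 0.00291). Within batches the value stayed near this size but did not pass (0.38 with adjusted p = 0.248 and 0.39 with adjusted p = 0.0785). The call was also lost with no low-count filter (0.32, adjusted p = 0.0908).

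Cortical Scg3 was at 138, 101, 148, 123 and 130 CPM in controls and from 129 to 193 CPM (median 164) in GA-Camk2a mice. Here the groups overlapped, and 4 of 6 GA-Camk2a cortices exceeded all controls. At 0.32 ± 0.11 (SE), the log2 fold change was just past the threshold (adjusted p = 0.0484 in edgeR). The call was kept without GA-Camk2a 34, 35 or 41. Leaving out GA-Camk2a 16, 23 or 30, or any of the 5 controls, ended the call, with log2 fold changes from 0.26 to 0.35 and adjusted p up to 0.119. It was also lost with no batch term (adjusted p = 0.0711), DESeq2 with and without batch (0.0618 and 0.0602), limma-voom (0.0515), no low-count filter (0.158), thinned counts (0.0534) and in each batch alone (0.258 and 0.316), with log2 fold changes from 0.27 to 0.41.

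Scg2, secretogranin II, the precursor of secretoneurin, rose in cortex. Controls held 184, 218, 208, 251 and 190 CPM (mice 11, 20, 31, 37 and 38) and GA-Camk2a cortices ran from 226 to 290 CPM with a median of 274. Of the 6, 4 were above every control. The log2 fold change was 0.35 ± 0.10 (SE, edgeR, adjusted p = 0.0177). It was 0.50 in batch 1 alone (adjusted p = 0.0135) and 0.08 in batch 2 alone (adjusted p = 0.895), and the difference between the batches was not tested. It did not pass without control 11 (0.33, adjusted p = 0.0502) or without control 38 (0.32, adjusted p = 0.0591), with no low-count filter (0.33, adjusted p = 0.0646) or with thinned counts (0.30, adjusted p = 0.0572). In hippocampus Scg2 ranged from 166 to 212 CPM in controls and from 167 to 237 CPM in GA-Camk2a mice, with a log2 fold change of 0.10 (95% interval -0.10 to 0.30, edgeR adjusted p = 0.572).

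Chga and Vgf did not pass in either tissue. For Chga, chromogranin A, the log2 fold change was -0.13 (95% interval -0.33 to 0.06, edgeR adjusted p = 0.409) in cortex and -0.21 (-0.40 to -0.02, adjusted p = 0.151) in hippocampus, where 5 of 6 GA-Camk2a libraries were below every control. Vgf, the precursor of peptides such as TLQP-21, was at 78.6, 90.5, 106 and 102 CPM in control hippocampi and from 44.7 to 104 CPM (median 65.0) in GA-Camk2a hippocampi. Of these 6 libraries, 4 lay below every control, and the log2 fold change was -0.50 ± 0.16 (SE, edgeR, adjusted p = 0.0574). The Vgf call depended on the model as well as on libraries and batch. It passed with DESeq2 and batch (-0.52, adjusted p = 0.0285), limma-voom (-0.50, adjusted p = 0.0483), no low-count filter (-0.58, adjusted p = 8.02e-05), 1 fit over all 21 libraries (-0.49, adjusted p = 0.0384), the choroid plexus covariate (-0.49, adjusted p = 0.0431) and without the 3 libraries of high Rorb (-0.63, adjusted p = 0.0244). It also passed without GA-Camk2a 34 (-0.61, adjusted p = 0.0114), without control 11 (-0.68, adjusted p = 0.0142) and in batch 2 alone (-0.93, adjusted p = 0.00438), and was -0.14 in batch 1 alone (adjusted p = 0.822). In cortex the Vgf groups overlapped fully, with -0.15 (95% interval -0.38 to 0.08, adjusted p = 0.433).

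**Figure D3:**
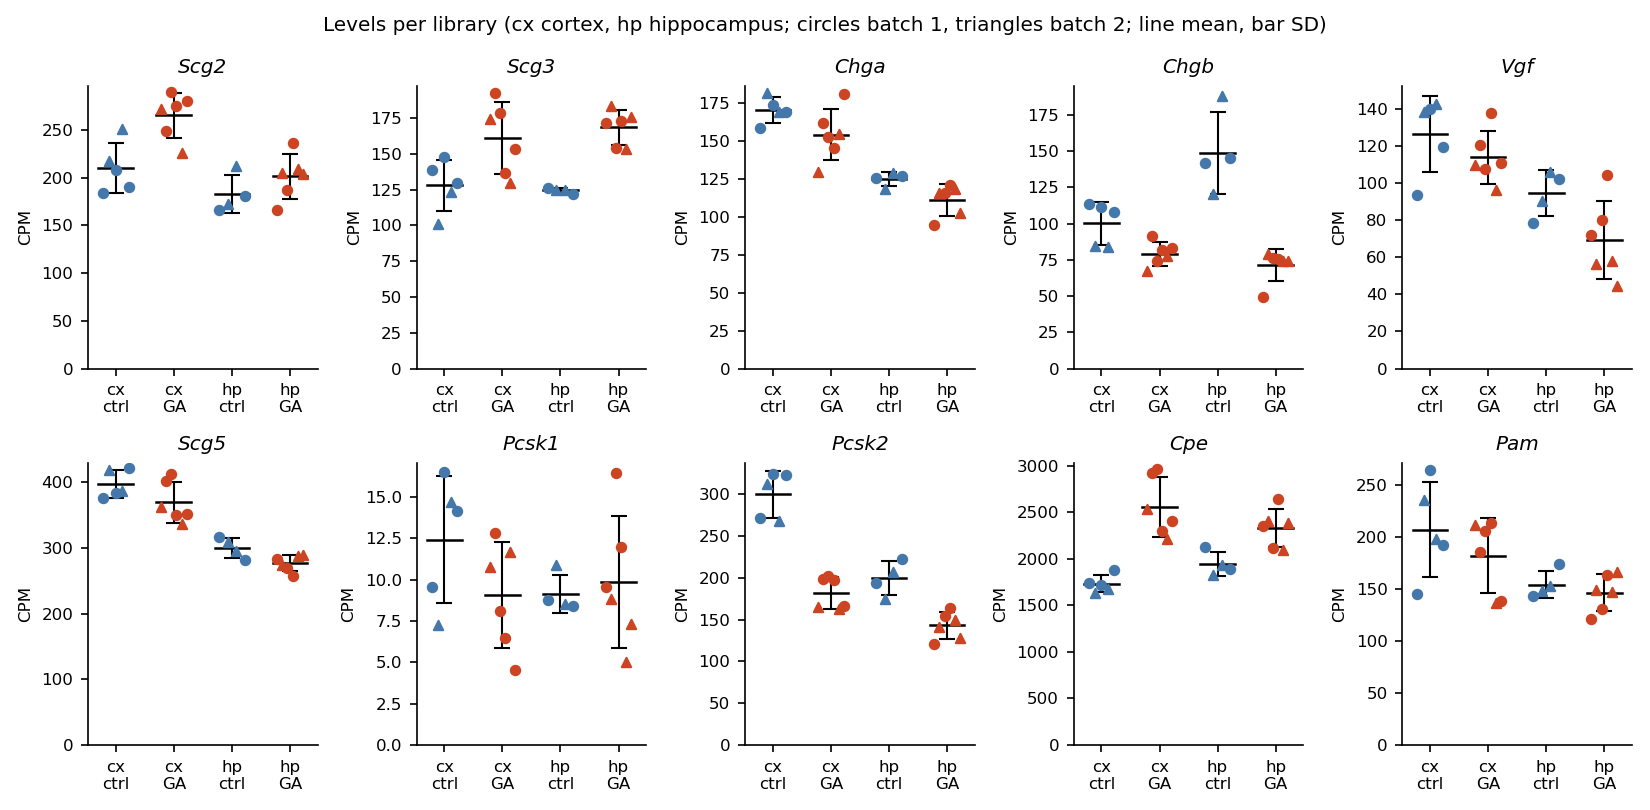
Level of each of the 10 members in every library (y axis, CPM; x axis, the 4 groups of tissue and genotype; points, libraries). Every GA-Camk2a library lies below every control of its tissue for Pcsk2 in both tissues and for Chgb in hippocampus, and above every control for Cpe in cortex and Scg3 in hippocampus. The share of all genes whose groups separate in this way was not counted.

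Pcsk2, prohormone convertase 2, was lower in GA-Camk2a mice in both tissues. Control cortices held 271, 312, 324, 268 and 322 CPM (mice 11, 20, 31, 37 and 38), and GA-Camk2a cortices ran from 163 to 203 CPM with a median of 181. All 6 GA-Camk2a cortices lay below all controls, a mean change of -39.3%. The log2 fold change was -0.73 ± 0.09 (SE, edgeR, adjusted p = 5.21e-06), and it passed in every alternative, from -0.82 to -0.68, including both batches.

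Hippocampal Pcsk2 was at 193, 175, 207 and 222 CPM in controls (mice 11, 20, 31 and 37) and from 121 to 164 CPM (median 145) in GA-Camk2a mice. Again no GA-Camk2a library reached a control, and the mean changed by -28.3%. Its log2 fold change was -0.52 ± 0.10 (SE; adjusted p = 0.00296 in edgeR). It kept its call without each library in turn and was lost only in batch 1 alone (-0.55, adjusted p = 0.181). Antisense genes on the opposite strand of Pcsk2 held 283 (Pcsk2os1) and 26 (Pcsk2os2) counts in all, against 10169 for Pcsk2 itself.

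Scg5 encodes 7B2, the chaperone that Pcsk2 needs to become active. Scg5 did not pass in either tissue. Its level was 398 ± 21.2 CPM (SD, n = 5) in control and 369 ± 31.1 CPM (SD, n = 6) in GA-Camk2a cortex (log2 fold change -0.10, 95% interval -0.28 to 0.07, edgeR adjusted p = 0.477). Hippocampal levels were 301 ± 15.1 CPM (SD, n = 4) and 277 ± 12.3 CPM (SD, n = 6), with a log2 fold change of -0.16 (adjusted p = 0.202). In cortex, the 95% interval of Scg5 lay above that of Pcsk2 (-0.91 to -0.55), whereas in hippocampus the intervals of the pair overlapped (-0.32 to 0.00 for Scg5 and -0.73 to -0.31 for Pcsk2). The difference between the genes was not tested.

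Pcsk1, prohormone convertase 1/3, was read at 8 to 64 counts per library. Control cortices held 9.54, 7.27, 16.5, 14.7 and 14.1 CPM, and GA-Camk2a cortices ran from 4.55 to 12.8 CPM. The log2 fold change was -0.56 with a 95% interval of -1.07 to -0.05 in cortex (edgeR, adjusted p = 0.150) and 0.06 with an interval of -0.47 to 0.59 in hippocampus (adjusted p = 0.915).

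Cpe, carboxypeptidase E, rose in cortex. Controls were at 1744, 1634, 1719, 1679 and 1878 CPM (mice 11, 20, 31, 37 and 38), and GA-Camk2a cortices ran from 2216 to 2968 CPM with a median of 2467. All 6 lay above all controls, and the mean was 47.8% higher. This change, 0.56 ± 0.09 on the log2 scale (SE; adjusted p = 0.000248 in edgeR), passed in every alternative (0.52 to 0.60). In hippocampus, controls held 2131, 1821, 1936 and 1896 CPM and GA-Camk2a mice 2094 to 2646 CPM (median 2370), and 4 of the 6 exceeded all controls. The hippocampal log2 fold change was 0.22 ± 0.08 (SE, edgeR, adjusted p = 0.0902). It passed in edgeR with the stricter low-count filter (0.26, adjusted p = 0.0343), with DESeq2 with and without batch (0.22, adjusted p = 0.0271 and 0.0211) and with limma-voom (0.22, adjusted p = 0.0226).

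Pam, peptidylglycine alpha-amidating monooxygenase, did not pass in either tissue. Its log2 fold change was -0.19 (95% interval -0.47 to 0.09, edgeR adjusted p = 0.407) in cortex and -0.13 (-0.33 to 0.07, adjusted p = 0.441) in hippocampus. Cortical Pam varied widely, from 145 to 265 CPM in controls and from 136 to 214 CPM in GA-Camk2a mice. Genes that overlap Pam on the same strand held 1057 (Gm3531), 514 (B230216N24Rik) and 58 (Gm37140) counts against 8484 for Pam, so its counts are uncertain to that extent.

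The members' share of all counts was 0.338% ± 0.0129 (SD, n = 5) in control and 0.407% ± 0.0417 (SD, n = 6) in GA-Camk2a cortex, and 0.328% ± 0.0148 (SD, n = 4) and 0.353% ± 0.0248 (SD, n = 6) in hippocampus. The mean share stood higher in the transgenic mice although 7 of 10 members had a negative log2 fold change in cortex and 6 of 10 in hippocampus. Cpe held the largest part, a mean of 1731 of 3383 CPM in control and 2557 of 4073 CPM in GA-Camk2a cortex. In hippocampus it held 1946 of 3285 and 2334 of 3532 CPM. In each tissue Cpe rose by more than the sum, so the other members together had a lower mean in GA-Camk2a mice.

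The genotype effects of the tissues were compared as an interaction (hippocampus effect minus cortex effect). Only Chgb passed, 1 of 10 members, against 0.4% of 14751 genes (0.149% higher, 0.251% lower). Its difference was -0.78 ± 0.17 on the log2 scale (SE, edgeR, adjusted p = 0.0337, 95% interval -1.14 to -0.43). With the mouse as a block it was -0.82 (adjusted p = 0.0179). The call rested on single libraries. It held without any 1 of cortex GA-Camk2a 16 or 30, cortex control 11, hippocampus GA-Camk2a 16 or 35, or hippocampus control 20, and was lost without any 1 of the other 15 libraries, with values from -0.61 (adjusted p = 0.131, without hippocampus control 31) to -0.80. It was also lost with counts thinned to the smallest library (-0.67, adjusted p = 0.178) and without the 3 hippocampus libraries of high Rorb (-0.68, adjusted p = 0.0983).

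For the other 9 members the difference between tissues did not pass, which does not show equal effects. The value for Cpe was -0.36 (95% interval -0.59 to -0.12, edgeR adjusted p = 0.222), for Vgf -0.32 (-0.76 to 0.12, adjusted p = 0.659) and for Scg2 -0.27 (-0.54 to 0.01, adjusted p = 0.512). For Pcsk2 it was 0.19 (-0.07 to 0.45, adjusted p = 0.650) and for Scg3 0.05 (-0.23 to 0.32, adjusted p = 0.960).

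The levels of the members also differed between the tissues of control mice. Of the 10, 6 passed, 1 higher in hippocampus (Chgb) and 5 lower (Pcsk2, Chga, Vgf, Pam, Scg5), against 16.3% of 14435 genes (8.69% higher, 7.6% lower). The log2 difference of Chgb was 0.52 (adjusted p = 0.00888 in edgeR). Pcsk2 fell by 0.63 (adjusted p = 0.000284), Chga by 0.50 (adjusted p = 0.000858), Vgf by 0.50 (adjusted p = 0.00636), Pam by 0.47 (adjusted p = 0.0179) and Scg5 by 0.46 (adjusted p = 0.0021). The Pam call was lost without cortex control 20 (-0.40, adjusted p = 0.0667), hippocampus control 11 (-0.43, adjusted p = 0.0650) or hippocampus control 20 (-0.44, adjusted p = 0.0584). The remaining members, Scg2 (-0.27, adjusted p = 0.0591), Pcsk1 (-0.55, adjusted p = 0.0897), Scg3 and Cpe, did not pass. Scg2 passed with limma-voom (-0.32, adjusted p = 0.0105), without cortex control 31 (-0.28, adjusted p = 0.0397) or without hippocampus control 37 (-0.33, adjusted p = 0.0448), and Pcsk1 without cortex control 20 (-0.68, adjusted p = 0.0351).

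In GA-Camk2a mice, 6 of 10 members were lower in hippocampus than in cortex and 0 were higher, against 33.2% of 13098 genes (15.9% lower). These were Vgf (-0.74), Chga (-0.56), Scg5 (-0.50), Scg2 (-0.48), Pcsk2 (-0.41) and Pam (-0.41), with edgeR adjusted p from 9.97e-05 (Scg5) to 0.0133 (Pam). The Pam call was lost with thinned counts (-0.34, adjusted p = 0.0741). Chgb, higher in hippocampus among controls, was at -0.26 here (edgeR, adjusted p = 0.0834) and passed without cortex GA-Camk2a 16 (-0.32, adjusted p = 0.0433). Cpe was at -0.21 (adjusted p = 0.0743) and passed without cortex GA-Camk2a 34 (-0.25, adjusted p = 0.0427), with DESeq2 with and without batch (-0.21, adjusted p = 0.0410, and -0.22, adjusted p = 0.0245) and with limma-voom (-0.20, adjusted p = 0.0399). The order of the 4 groups for Chgb was thus control hippocampus, control cortex, GA-Camk2a cortex and GA-Camk2a hippocampus, and the difference between the last 2 did not pass (95% interval -0.49 to -0.02). For Pcsk2 the order was control cortex (300 ± 27.8 CPM, SD, n = 5), control hippocampus (199 ± 20.4, n = 4), GA-Camk2a cortex (182 ± 19.3, n = 6) and GA-Camk2a hippocampus (143 ± 16.2, n = 6). Control hippocampus and GA-Camk2a cortex overlapped and differ in tissue and genotype at once, so they were not tested.

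The other genes of the pathway passed about as often as all genes, of which 12.5% passed in cortex and 10.9% in hippocampus. Of 11 further precursor processing genes, 1 was lower in each tissue and 0 were higher. This was Sort1, a sorting receptor, at -0.46 in cortex (edgeR, adjusted p = 0.0162) and -0.47 in hippocampus (adjusted p = 0.0113). Pcsk1n, the inhibitor of Pcsk1, was at -0.04 and -0.21 and did not pass. Of 26 tested genes for the formation and release of dense-core vesicles, 3 were lower and 0 higher in each tissue. In cortex these were the priming factors Unc13a (-0.70) and Cadps (-0.36) and the Rab effector Rph3a (-0.53). In hippocampus they were Unc13a (-0.88), the calcium sensor Syt7 (-0.42) and the small GTPase Rab3a (-0.31). Unc13a and Rph3a also act at synaptic vesicles. The median of this list was -0.19 in cortex and -0.15 in hippocampus, against -0.0050 and 0.016 over all genes.

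The cargo changed in both directions. Of all genes, 6.35% were higher and 6.17% lower in cortex, and 4.97% and 5.97% in hippocampus. Of 15 peptide precursors, 5 were higher and 2 lower in cortex, with the largest rises in Vip (1.31), Crh (0.96) and Tac2 (0.84) and falls in Penk (-1.35) and Tac1 (-1.05). In hippocampus 1 was higher (Vip, 1.16) and 2 were lower (Cck, -0.96, and Cartpt, -0.41). Of the activity genes, 8 of 12 tested were lower in cortex and 6 of 11 in hippocampus, and 0 were higher. Among those that did not pass in hippocampus, Fosb was at 0.37, Ier2 at 0.14 and Fos at 0.04. The largest falls were in Arc (-1.63), Egr2 (-1.55) and Egr1 (-1.39) in cortex and in Arc (-1.37), Egr4 (-1.03) and Egr1 (-1.02) in hippocampus.

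**Figure D4:**
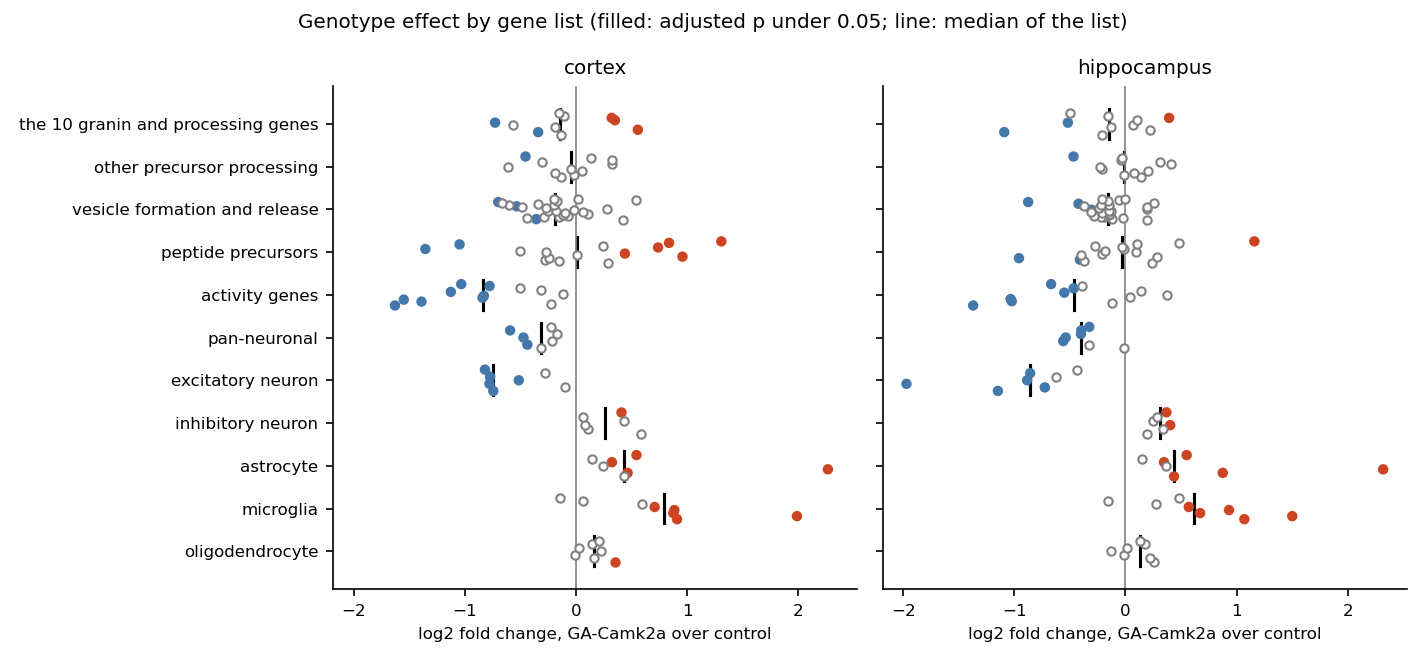
Log2 fold change of GA-Camk2a against control for each tested gene of the members, the other pathway lists and the neuronal and glial marker lists (x axis, log2 fold change; y axis, list; filled points pass the threshold and bars are list medians) in cortex and hippocampus. The activity genes that pass lie to the left of 0 in both tissues, while the peptide precursors and the members lie on both sides.

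Cell type markers were counted against the same shares of all genes, 6.35% higher and 6.17% lower in cortex and 4.97% higher and 5.97% lower in hippocampus. Summed excitatory neuron markers ranged from 1900 to 2401 CPM in control and from 1224 to 1676 CPM in GA-Camk2a cortex, and from 2070 to 2616 and 1097 to 1489 CPM in hippocampus, with 5 of 7 genes lower in each tissue. Of 7 pan-neuronal markers, 3 were lower in cortex and 5 in hippocampus. Inhibitory neuron markers were higher for 1 of 6 in cortex and 2 of 6 in hippocampus. Their part in the lower Pcsk2 and Chgb was not tested.

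Microglia and astrocyte markers moved the other way, whereas oligodendrocyte markers were higher for 1 of 7 in cortex and 0 of 7 in hippocampus. Microglia markers were higher for 5 of 8 genes in each tissue (204 to 221 against 416 to 634 CPM summed in cortex, and 189 to 213 against 293 to 441 CPM in hippocampus). Astrocyte markers were higher for 4 of 7 in cortex (1670 to 2438 against 2428 to 3781 CPM) and 5 of 7 in hippocampus (2141 to 2475 against 3518 to 4963 CPM). Their part in the higher Cpe and Scg3 was not tested. In cortex, all 7 striatum markers were lower in GA-Camk2a mice, at 419 to 608 CPM summed in controls and 134 to 230 CPM in GA-Camk2a mice. The ranges did not overlap, so striatal tissue in the dissection and genotype cannot be told apart for the cortical values, Pcsk2, Penk and Tac1 included. In hippocampus these markers were at 113 to 159 CPM in controls and 106 to 212 CPM in GA-Camk2a mice. The part of striatal tissue in the cortical changes of the members was not tested. No gene of the marker lists was at 0 in all libraries of a group.

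The members did not move as a unit from library to library. Within groups, the median Pearson correlation of log2 CPM over the 45 pairs of members was 0.19, and 33 pairs were above 0, given as a description of 21 libraries that share tissue, depth and genotype. Within groups the closest pair was Scg3 and Cpe (r = 0.73, and 0.82 over the 21 libraries). Over the 21 libraries it was Scg5 and Chga (r = 0.84, and -0.10 within groups).

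The 3 genes with the most similar pattern over the 21 libraries were sought for each member among 11220 genes, by Pearson correlation of log2 CPM. These values include the differences between the 4 groups, and the correlation within groups was lower for most pairs. Within groups it was 0.24 for Scg5 and Stx1a, 0.41 for Scg5 and Krt12, 0.28 for Scg5 and Rprm, and 0.47 to 0.50 for Chga and its 3 genes. For Cpe it was 0.53 with Itm2b, 0.45 with Ly86 and 0.60 with C1qb, and for Scg2 it was 0.46 with Fermt2. For Pcsk2 these were Lingo1, Camk4 and Tuba4a (each r = 0.93), and for Chgb they were Bok (0.91), Neurod6 (0.89) and Cacng8 (0.89). Scg3 was most like Mlc1 (0.90), Cx3cr1 (0.89) and Sparcl1 (0.89), genes known from astrocytes and microglia. Cpe was most like Itm2b (0.89), Ly86 (0.88) and C1qb (0.88), the last 2 of them microglial genes. Vgf was closest to Ccdc92, Gapdh and Mtmr6, with r from 0.85 to 0.90, and Scg2 to Crh, Fermt2 and Sfxn5, with r from 0.82 to 0.83. Scg5 was closest to Stx1a, Krt12 and Rprm (0.90 to 0.93), Chga to Supt7l, Ttc9b and Tubb3 (0.92 to 0.93), and Pam to Abcg1, Cux2 and Dusp3 (0.87 to 0.91). The best match of Pcsk1 was Flrt1 at 0.71, followed by Castor2 and Tyw5.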

How the data were processed

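RNA from microdissected cortex and hippocampus was sequenced with prime-seq, which reads the 3′ ends of polyadenylated transcripts. According to the labels, the authors counted with zUMIs on GRCm39 (mm39), and the submitters' processing notes also name FastQC 0.11.8, cutadapt 1.12, STAR and DESeq2 1.44. The authors deposited unnormalized integer counts, 1 column for each library. Whether molecules or reads were counted, and the annotation, intron and strand settings, are not given in the sources used here. If reads were counted, counting error understates technical error. Symbols came from a GENCODE annotation of GRCm38 matched on Ensembl numbers (43308 of 64361 genes), so no coordinates of the files' build are printed. Library sizes and tests leave out the GFP row.

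CPM is a library's counts scaled to a total of 1000000, and means and SDs are over libraries. Levels were not tested between genes, and counts of different genes, where set side by side, are given as a description. The main test was edgeR 4.0.16 in R 4.3.3 (quasi-likelihood, TMM, filterByExpr with a minimum count of 10, batch of the labels as covariate), per tissue, with Benjamini-Hochberg adjustment over all genes and a threshold of 0.05. Intervals are 95% and not adjusted. Each library is 1 mouse and tissue. An interaction over all libraries compared the tissues. Alternatives were DESeq2 1.42.0 (the study's tool), limma-voom 3.58.1, other normalizations and filters, thinning, each batch alone, each library left out and the mouse as a block. Libraries of a number come from the same mouse by the labels, and the correlation of their deviations ranged from -0.129 to 0.235 over 10 mice. It was 0.147 to 0.235 in mice 11, 20, 30, 34 and 35, whose libraries share a batch. It was -0.129 to -0.0084 in mice 16, 23, 31, 37 and 41, whose libraries do not. For each of the latter, a library of another mouse correlated better (0.0897 to 0.274). Deviations were not corrected for batch, so these values cannot tell mouse from batch. The choroid plexus covariate and the removal of 3 libraries were added after seeing the data. Scripts were tested on simulated data.

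The members and the gene lists were chosen with earlier results of these data known. All members were named, plus the 3 genes most like each (passing the filter in both tissues, average log2 CPM of at least 3), and per other list and tissue up to 3 largest rises and falls past the threshold. Precursor proteins and the promoters of Vgf and Cpe were not analysed here.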

Additional observations from a re-analysis of the deposited data

Results flagged for a closer look

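In GA-Camk2a hippocampus, the Chgb level of mouse 16 was 49.6 CPM, and the next lowest library was at 74.1 CPM. On the log2 CPM scale the gap was 0.849 of the range of the 6 libraries, above the critical value of 0.625. Of 40 groups of members and libraries checked, this was the single one found, and chance gives about 1 in 20.

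The genotype effect on Chgb differed between the tissues by -0.78 on the log2 scale in the interaction test (hippocampus minus cortex), with mean levels of 149 CPM in control and 71.5 CPM in GA-Camk2a hippocampus and of 100.3 and 79.3 CPM in cortex.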

How the results depend on the processing

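Of the genotype calls on members, Pcsk2 and Cpe in cortex and Chgb in hippocampus held in every alternative run. The number of members past the threshold in cortex, 5, became 4 with DESeq2 and batch, limma-voom or 1 fit over all 21 libraries. It became 3 with no batch term, DESeq2 without batch, thinned counts or batch 1 alone. It was 2 with no low-count filter or batch 2 alone, and 2 to 5 with each library left out. Among all genes, 1635 of 13058 passed in the main fit, 876 of 14045 in batch 1 alone and 230 of 11808 in batch 2 alone. With each library left out, 1038 to 1526 genes passed. In hippocampus the number, 3, became 5 with DESeq2 and batch or with limma-voom, 1 in batch 1 alone, and 3 to 4 with each library left out. It was 4 with DESeq2 without batch, the stricter filter, 1 fit, the choroid plexus covariate or without the 3 libraries of high Rorb. Among all genes there, 1628 of 14884 passed in the main fit, 115 of 15966 in batch 1 alone and 681 of 13737 in batch 2 alone. The 1 member whose effect differed between tissues became 0 with thinned counts or without the 3 libraries of high Rorb, and 0 to 1 with each library left out. Among all genes, 59 of 14751 passed this test, 22 of 12383 with thinned counts and 20 of 14677 without those 3 libraries. With each library left out, the tissue comparisons gave 5 to 7 members in controls and 6 to 7 in GA-Camk2a mice. With the mouse as a replicate block, the counts of 1, 6 and 6 members in the interaction and the tissue comparisons and the calls were as without it. Only values that did not pass changed sign: cortex Vgf in batch 1 alone (0.013), hippocampus Pcsk1 with no filter (-0.021), without the 3 libraries of high Rorb (-0.24), in batch 2 alone (-0.61) and with libraries left out (-0.15 to 0.30), the difference between tissues for Chga in thinned counts (0.032), for Scg3 (-0.0036 to 0.12) and Pam (-0.041 to 0.16) with libraries left out, and the tissue effect in GA-Camk2a mice for Scg3 (0.066 with a stricter filter, 0.043 thinned, -0.093 to 0.029 with libraries left out) and Pcsk1 (-0.11 to 0.34). The causes were not tested. With no low-count filter, the median of all genes shifted to 0.12 and 0.14 in the tissue comparisons. Depth was lowest for Pcsk1, at 8 to 64 counts per library, and its standard errors were the widest of the members in both tissues.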
